A study of Mus musculus with 6 samples.

Results

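The 34 genes described here encode enzymes that make, salvage or remove purine, pyrimidine and deoxynucleotide building blocks, or that carry the one-carbon units used in that synthesis. They were given as a list of names, with no threshold on their read counts, and were matched to the Entrez identifiers of the count table. All 34 of the 34 were found among the 27179 genes of the table, and all 34 were among the 11005 genes that passed the filter on low expression and were tested. RNA-seq libraries were made from NP-binding IgG1+ germinal center (GC) B cells of mouse spleen, sorted as B220+ CD38- cells without CD138, IgM, IgD or Gr1. There was 1 library of WT and 1 of Il21r-/- cells on each of days 7, 10 and 14 after immunization with NP-KLH in alum, a T cell-dependent antigen, so that 3 libraries stood for each genotype. All mice had a C57BL/6 background, and both genotypes were immunized in the same way. Mice of both sexes were used, matched for age and sex, with an age given only as a range over all experiments. The methods describe bone marrow of either genotype in irradiated Ly5.1 hosts as the general design, so the surrounding host cells may have kept the receptor. The sources give 3 mice of each genotype for day 7 and otherwise only a total over both independent immunizations. They do not say which libraries came from which immunization, so whether immunization ran with day is not known. P-values measure the spread between these 6 libraries.

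GC B cells divide rapidly, and each division needs a supply of all deoxynucleotides. Purine rings are built stepwise on phosphoribosyl pyrophosphate (PRPP), pyrimidine rings are built first and joined to PRPP afterwards, and ribonucleotide reductase then turns ribonucleotides into deoxynucleotides. The folate cycle, fed by serine, gives carbon atoms to the purine ring and the methyl group that makes thymidylate from deoxyuridylate. IL-21 is a cytokine of follicular helper T cells, and the comparison addresses what GC B cells lack when its receptor is missing.

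The promoter stretches of 5 of the genes are shown to set the ribonucleotide reductase pair Rrm1 and Rrm2, the first of which was not called for genotype, beside Tyms, Prps1 and Shmt1, which rose with day. Prps2 and Samhd1 were also called, and their stretches, which reach into annotated gene sequence, are not shown. The Tyms stretch is shown although it also reaches into its annotated gene, which ends at base 30073645 of chromosome 5. Each stretch holds the 150 bases before the start site in the RefSeq promoter table of build GRCm38.p6, written 5′ to 3′ on the strand of the gene. Rrm1 lies on the plus strand (chr7:102441545-102441694), as do Rrm2 (chr12:24708104-24708253) and Prps1 (chrX:140456453-140456602), and Tyms (chr5:30073626-30073775) and Shmt1 (chr11:60811266-60811415) lie on the minus strand. Capitals mark the letters of any motif searched.
Rrm1: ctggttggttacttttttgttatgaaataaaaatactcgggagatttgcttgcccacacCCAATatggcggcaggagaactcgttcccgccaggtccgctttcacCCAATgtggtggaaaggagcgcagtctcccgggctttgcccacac
Rrm2: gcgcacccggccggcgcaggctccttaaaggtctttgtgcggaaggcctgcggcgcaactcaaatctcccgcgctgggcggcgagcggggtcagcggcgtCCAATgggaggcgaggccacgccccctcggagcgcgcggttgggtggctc
Tyms: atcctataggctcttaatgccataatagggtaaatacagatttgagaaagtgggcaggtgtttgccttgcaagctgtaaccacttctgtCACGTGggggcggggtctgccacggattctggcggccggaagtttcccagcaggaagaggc
Prps1: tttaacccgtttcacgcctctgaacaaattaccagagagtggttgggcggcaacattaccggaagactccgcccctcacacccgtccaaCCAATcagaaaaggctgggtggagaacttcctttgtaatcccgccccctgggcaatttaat
Shmt1: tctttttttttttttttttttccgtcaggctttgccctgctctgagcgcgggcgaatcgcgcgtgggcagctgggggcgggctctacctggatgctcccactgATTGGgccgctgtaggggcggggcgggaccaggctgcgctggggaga

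The motifs were searched on both strands of windows of 250 bases before and 50 after the start, which the table held for 32 of the 34 genes. They were the E-box CACGTG, the E2F sites TTTCCCGC and TTTGGCGC, the CCAAT box CCAAT, and the amino acid response element TGATGNAAT. None of these 5 letter strings contains another. Rrm1 held 2 CCAAT boxes, at bases -91 and -45, Rrm2 held 1 at -50, Prps1 held 1 at -61, and Shmt1 held 1 on the opposite strand at -47. A CCAAT box was present in 12 of the 32 genes (37.5%), beside 41.1% of all 27025 genes with a window outside chromosome 18. The Tyms window held an E-box at -61, and 6 of the 32 genes (18.8%) held this motif, which were Atic, Dtymk, Impdh2, Nme1, Paics and Tyms. The E-box was found in 8.09% of all genes with a window and in 12.3% of those tested for expression. TTTCCCGC was found in Ppat and Prps2 (6.25% of the 32 genes, beside 1.24% of all genes and 2.58% of those tested). In the 250 bases before the start alone it was found in 1 of the 32 (3.12%), beside 2.16% of the genes tested. Neither TTTGGCGC nor the amino acid response element was found in any of the 32, beside 0.585% and 1.08% of all genes. These matches describe letters only.

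Library totals lay between 21353438 and 27435124 reads assigned to genes. Levels are given as CPM, the reads of a gene relative to the summed reads of the tested genes in that library. These sums were scaled by TMM (trimmed mean of M values) factors. Differences are given as log2 fold changes, which are positive where WT was higher. All 13 GC B cell markers were expressed, the summed level of 10 T cell markers was at most 1.83 CPM, that of 10 myeloid markers at most 8.86 CPM, and that of 7 erythroid markers at most 33.96 CPM. The 7 plasma cell markers summed to 2754 to 2935 CPM in WT and 3025 to 3839 CPM in Il21r-/- cells, most of it Jchain. Jchain, Xbp1 (198.1 to 305.0 CPM) and Slamf7 (195.3 to 250.8 CPM) were higher in Il21r-/- cells on each day. Irf4 was higher there on days 10 and 14 only. Sdc1 and Prdm1 were at most 0.854 and 1.83 CPM and lower in Il21r-/- cells on each day, and Tnfrsf17 was under 1 CPM. Il21r itself was at 345.8, 263.0 and 246.6 CPM in WT on days 7, 10 and 14 and at 105.8, 127.6 and 112.7 CPM in the libraries labelled Il21r-/- (log2 fold change 1.29 ± 0.13 SE, edgeR adjusted p = 0.00137), so the labels and the targeted gene went the same way.

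The 34 genes took between 0.622% and 0.794% of the reads of a library. Their summed level was 7236, 7691 and 7889 CPM in WT on days 7, 10 and 14 and 6502, 6568 and 7170 CPM in Il21r-/- cells. Every WT library thus stood above every Il21r-/- library in this sum. Levels of different genes can be compared only per length, as CPM per kb of exon. On that scale Nme2, a nucleoside diphosphate kinase, was the highest at a mean of 486 over the 6 libraries, followed by Hprt, the purine salvage enzyme, at 245, Dck, the deoxycytidine kinase, at 224, and Paics, which joins steps of purine synthesis, at 196. The lowest were Pfas, a purine synthesis enzyme, at 4.62, and Impdh1, an isoform of the enzyme on the way to GMP, at 5.05 CPM per kb.

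**Figure D1:**
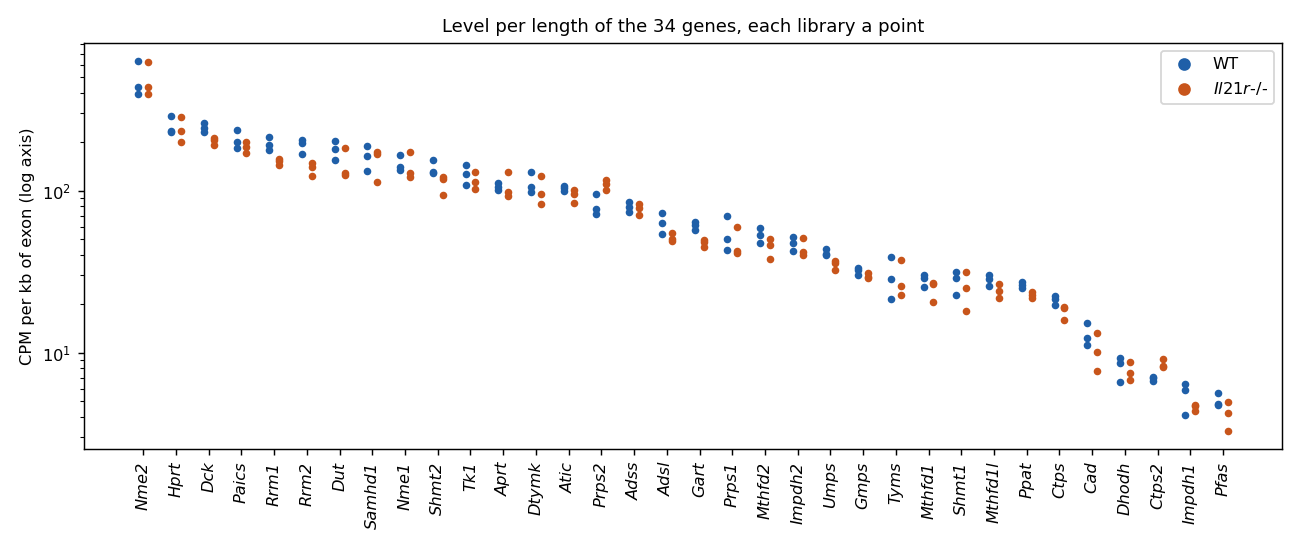
Level of each of the 34 genes in CPM per kb of exon (log axis), ordered by the mean over 6 libraries, with each point 1 library, blue for WT and orange for Il21r-/-. Nme2 stood highest with a mean of 486 and Pfas lowest with 4.62, and for most genes the 2 colours overlapped.

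Differences between WT and Il21r-/- cells were first tested over the 3 days together, in a model with genotype and a linear effect of day. Rrm2, the regulated subunit of ribonucleotide reductase, was higher in WT, and Prps2, an isoform of the enzyme that makes PRPP, was higher in Il21r-/- cells. Both passed the threshold of an adjusted p of 0.05, so 2 of the 34 genes (5.88%) were called. Over all tested genes, 5.92% were called, 1.4% higher and 4.52% lower in WT, so the share among the 34 was that of the background. The direction was more uniform than the calls. Of the 34 genes, 31 (91.2%) had a positive log2 fold change, with a median of 0.18, while 48.2% of all tested genes were positive, with a median of -0.0098. Prps2, Ctps2 and Nme2 were the 3 with a negative value. Both calls depended on which libraries were kept. Without the Il21r-/- library of day 10, 10 of the 34 genes (29.4%) were called, beside 19.0% of all genes, and without any 1 of the other libraries none was. In those 5 fits Rrm2 had log2 fold changes of 0.41 to 0.53 (adjusted p = 0.0742 to 0.154) and Prps2 of -0.37 to -0.49 (0.0828 to 0.299).

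The libraries of a day deviated together from the means of their genotypes, which includes any trend with day that both shared. With day as a block instead of a line, 15 of the 34 genes (44.1%) were called, beside 22.9% of all genes. Of these, 13 (38.2%) were higher in WT, beside 9.33% of all genes in that direction, and 2 (5.88%) were lower, beside 13.6%. The 13 were Rrm1, Rrm2, Dck, Dut, Cad, Umps, Ctps, Gart, Pfas, Adsl, Shmt2, Mthfd1l and Mthfd2, and the 2 were Prps2 and Ctps2. Without any blocking or fit, the 3 WT libraries all stood above the 3 Il21r-/- libraries for 8 of the 34 genes (23.5%), beside 8.33% of all tested genes. The reverse held for 2 of the 34 (5.88%), beside 10.0% of all tested genes. WT was higher on each of the 3 days for 19 of the 34 genes, which was so for 25.4% of all tested genes.

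**Figure D2:**
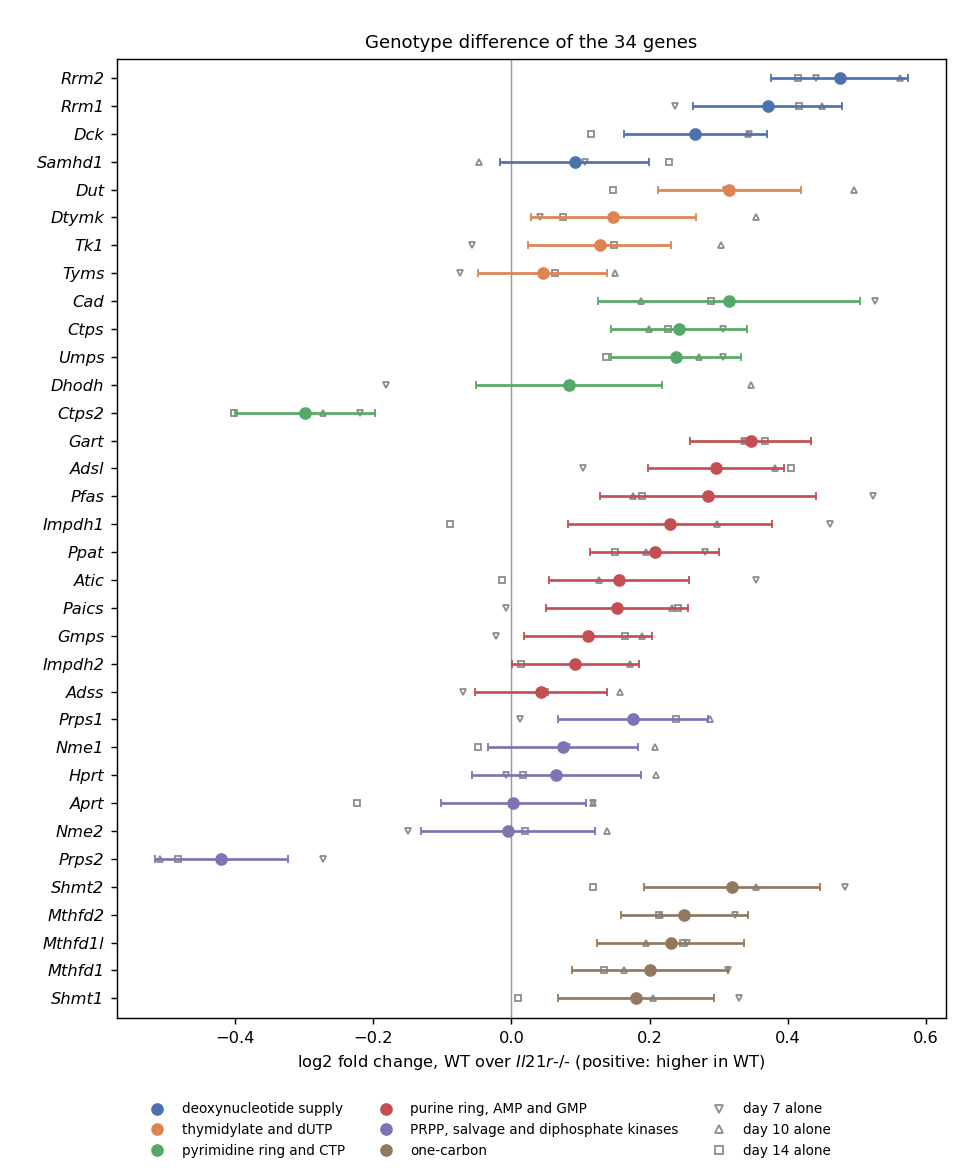
Log2 fold change of WT over Il21r-/- for the 34 genes in 6 groups of function; filled circles with bars give the estimate over 3 days ± SE, and open symbols the estimate of each day alone, with 1 library per genotype and day. Of the 34 circles, 31 lie to the right of 0, with Rrm2 the farthest right at 0.48 and Prps2 the farthest left at -0.42.

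Genes of deoxynucleotide supply showed the largest median difference of the 6 groups, at a log2 fold change of 0.32. Rrm2 was at 365.6, 448.2 and 431.4 CPM in WT on days 7, 10 and 14 and at 269.4, 303.5 and 323.4 CPM in Il21r-/- cells. The lowest WT library was above the highest Il21r-/- library, and the means across days were 415 ± 43.6 and 299 ± 27.3 CPM (SD, n = 3). The log2 fold change was 0.48 ± 0.10 (SE), a 1.39-fold difference, with an edgeR adjusted p of 0.0273. Rrm1, the catalytic subunit of the same enzyme, was at 717.3, 853.3 and 767.4 CPM in WT and at 608.5, 624.8 and 574.8 CPM in Il21r-/- cells. The groups did not overlap for Rrm1 either, but its log2 fold change of 0.37 ± 0.11 had an edgeR adjusted p of 0.0875. It passed with day as a block (adjusted p = 0.000456), with the DESeq2 Wald test (0.0187) and without the Il21r-/- library of day 10 (0.0229). Dck, which phosphorylates salvaged deoxycytidine, was at 796.0, 741.8 and 702.7 CPM in WT and at 627.0, 584.9 and 648.9 CPM in Il21r-/- cells. Its groups were also apart, with a log2 fold change of 0.27 ± 0.10 (adjusted p = 0.181, and 0.00921 with day as a block). Samhd1, which breaks deoxynucleoside triphosphates down, had a log2 fold change of 0.09 ± 0.11 (adjusted p = 0.681) and overlapping groups.

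Among the genes of thymidylate synthesis, Dut, which removes dUTP and yields deoxyuridylate, had the largest value. It was at 387.6, 452.9 and 512.0 CPM in WT and at 312.3, 321.0 and 462.5 CPM in Il21r-/- cells. WT was higher on every day, but the rise on day 14 made the groups overlap (log2 fold change 0.32 ± 0.10, adjusted p = 0.123, and 0.00266 with day as a block). Dtymk, the thymidylate kinase, was at 128.5, 138.3 and 170.9 CPM in WT and at 124.8, 108.2 and 162.2 CPM in Il21r-/- cells, with overlapping groups. Tk1, the thymidine kinase of dividing cells, and Tyms, thymidylate synthase, had log2 fold changes of 0.13 ± 0.10 and 0.05 ± 0.09. Tk1 overlaps Afmid on the opposite strand, and reads of the pair cannot be told apart without strand.

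Of the genes for the pyrimidine ring and CTP, 4 of 5 were positive and Ctps2 was negative. Cad carries the first 3 steps of pyrimidine synthesis, and was at 79.4, 107.7 and 87.5 CPM in WT and at 55.1, 94.6 and 71.7 CPM in Il21r-/- cells. WT was higher on each day, and both genotypes were highest on day 10 (log2 fold change 0.31 ± 0.19, adjusted p = 0.387, and 0.00472 with day as a block). Umps, which completes UMP, was at 128.5, 139.6 and 130.5 CPM in WT and at 104.0, 115.6 and 118.6 CPM in Il21r-/- cells, without overlap (0.24 ± 0.09, adjusted p = 0.189, and 0.0311 with day as a block). Dhodh, the mitochondrial step before it, had a log2 fold change of 0.08 ± 0.13.

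The 2 CTP synthases went in opposite directions. Ctps was at 52.9, 58.2 and 60.7 CPM in WT and at 42.8, 50.7 and 51.9 CPM in Il21r-/- cells, with a log2 fold change of 0.24 ± 0.10 (adjusted p = 0.199, and 0.0476 with day as a block). Ctps2 was at 41.4, 39.2 and 40.5 CPM in WT and at 48.2, 47.4 and 53.5 CPM in Il21r-/- cells, with a log2 fold change of -0.30 ± 0.10 (adjusted p = 0.132, and 0.0194 with day as a block). Neither gene's groups overlapped.

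All 10 genes of the purine ring and of AMP and GMP synthesis were positive, with a median log2 fold change of 0.18 and none called. Gart, which carries 3 steps of the purine pathway and uses folate for one of them, was at 189.3, 203.7 and 211.8 CPM in WT and at 149.9, 161.2 and 164.2 CPM in Il21r-/- cells. Its groups were apart and its log2 fold change of 0.35 ± 0.09 came nearest to the threshold (adjusted p = 0.0551, and 0.00128 with day as a block). Adsl, which acts in both purine ring and AMP synthesis, was at 114.4, 133.8 and 153.5 CPM in WT and at 106.5, 102.7 and 115.9 CPM in Il21r-/- cells. WT was higher each day and the groups overlapped (0.30 ± 0.10, adjusted p = 0.127, and 0.00923 with day as a block). Ppat, the first committed enzyme of the pathway, was at 105.6, 108.7 and 100.5 CPM in WT and at 86.93, 95.02 and 90.65 CPM in Il21r-/- cells (0.21 ± 0.09, adjusted p = 0.245), also without overlap. Pfas, at the fourth step, had a log2 fold change of 0.28 ± 0.16 (adjusted p = 0.342, and 0.0404 with day as a block). The log2 fold changes of Impdh1, Atic, Paics, Gmps, Impdh2 and Adss ran from 0.23 down to 0.04. Ppat and Paics overlap head to head on opposite strands, and Impdh2 overlaps Ndufaf3, so reads of each pair cannot be told apart without strand.

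PRPP synthesis, salvage and the diphosphate kinases had the smallest median log2 fold change of the 6 groups, at 0.03, with 4 of 6 genes positive. Prps2 was at 348.4, 282.2 and 261.8 CPM in WT and at 420.9, 401.6 and 365.9 CPM in Il21r-/- cells. The lowest Il21r-/- library was above the highest WT library, and the means were 298 ± 45.3 and 396 ± 27.9 CPM (SD, n = 3). The log2 fold change was -0.42 ± 0.10, a 1.34-fold difference, with an edgeR adjusted p of 0.0394. Its isoform Prps1 was at 84.7, 99.4 and 138.4 CPM in WT and at 84.0, 81.4 and 117.3 CPM in Il21r-/- cells, with overlapping groups and a log2 fold change of 0.18 ± 0.11 (adjusted p = 0.400). The salvage enzymes Hprt and Aprt, which recover purine bases, had log2 fold changes of 0.07 ± 0.12 and 0.0028 ± 0.11. The kinases Nme1 and Nme2, which make triphosphates from diphosphates, had values of 0.08 ± 0.11 and -0.0049 ± 0.13. Both overlap a readthrough gene that is annotated across them.

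Of the 5 one-carbon genes, all were positive over the 3 days and on each day, with none called. Shmt2, the mitochondrial enzyme that takes a carbon from serine, was at 302.0, 358.5 and 295.8 CPM in WT and at 216.1, 280.4 and 272.7 CPM in Il21r-/- cells, without overlap (log2 fold change 0.32 ± 0.13, adjusted p = 0.193, and 0.00335 with day as a block). Its exons overlap those of Ndufa4l2. Mthfd2, which oxidizes the folate-bound carbon in mitochondria, was at 98.2, 110.7 and 121.0 CPM in WT and at 78.5, 95.4 and 104.3 CPM in Il21r-/- cells (0.25 ± 0.09, adjusted p = 0.163, and 0.0239 with day as a block). Mthfd1l, which releases it as formate, was at 111.9, 130.9 and 124.2 CPM in WT and at 93.9, 114.4 and 104.6 CPM in Il21r-/- cells (0.23 ± 0.11, adjusted p = 0.255, and 0.0351 with day as a block). The cytosolic enzymes Mthfd1 and Shmt1 had log2 fold changes of 0.20 ± 0.11 and 0.18 ± 0.11. Shmt1 overlaps Smcr8 on the opposite strand.

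**Figure D3:**
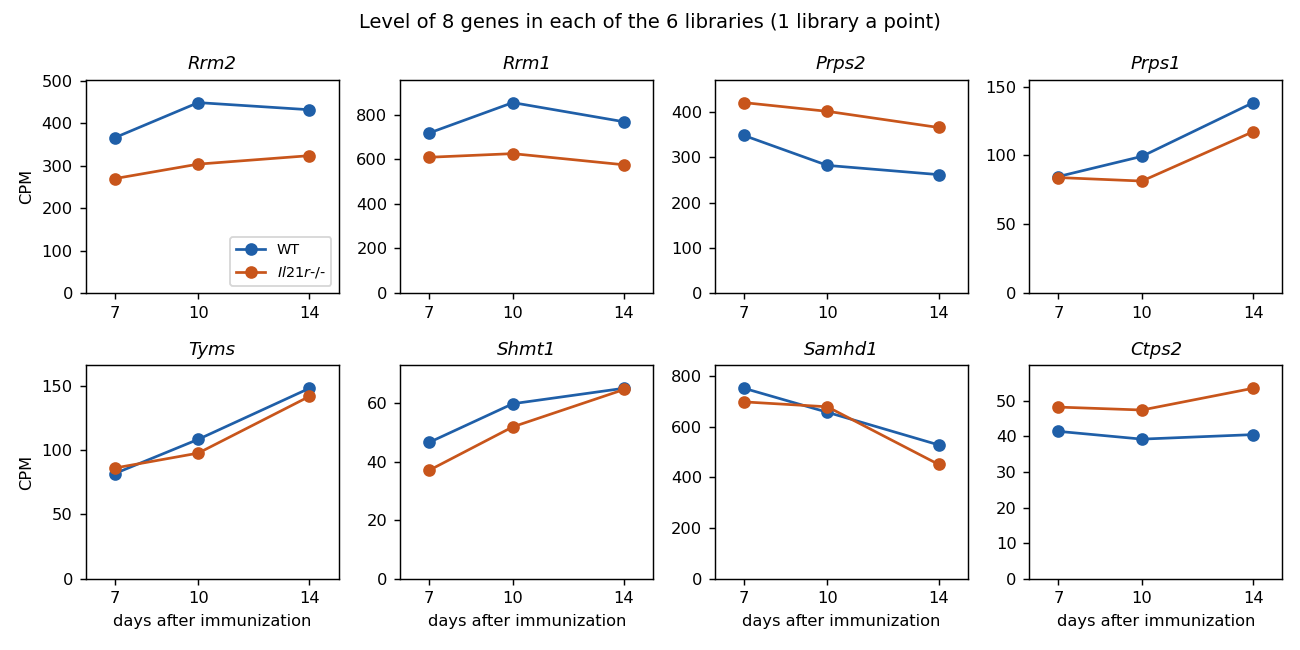
Level in CPM (axes start at 0) of 8 of the genes in each library against the day after immunization, blue for WT and orange for Il21r-/-, with each point 1 library. The lines of Rrm2 and Rrm1 run above in WT on each day, those of Prps2 and Ctps2 above in Il21r-/-, and Tyms, Prps1 and Shmt1 climb from day 7 to day 14 in both genotypes while Samhd1 falls.

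Each day was also tested alone with a likelihood ratio test, with 1 library per genotype and the error taken from the scatter of all 6. None of the 34 genes was called on any day. At an unadjusted p under 0.05 there were 2 of the 34 on day 7 (5.88%), 4 on day 10 (11.8%) and 4 on day 14 (11.8%), beside 5.51%, 10.8% and 12.1% of all tested genes, so the shares were near the background. With adjusted p-values the test called, over all tested genes, 1.07% on day 7, 3.1% on day 10 and 3.28% on day 14. The number of positive log2 fold changes was 24, 31 and 28 of 34, with medians of 0.18, 0.21 and 0.14. Of all tested genes, 50.54%, 47.59% and 48.45% were positive on days 7, 10 and 14. With day as a block, Dut, Prps2 and Rrm2 were called on day 10 (8.82% of the 34, beside 7.47% of all genes) and Prps2 on day 14 (2.94%, beside 9.59%), again near or under the background. The DESeq2 Wald test, fitted with a linear effect of day in place of a mean per day, also called none of the 34 on any day.

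The groups of function differed in how their medians ran over the days. The one-carbon genes had median log2 fold changes of 0.32, 0.20 and 0.13 on days 7, 10 and 14, and those of the pyrimidine ring 0.31, 0.20 and 0.14. Shmt1 went from 0.33 on day 7 to 0.01 on day 14 and Shmt2 from 0.48 to 0.12. Adsl went the other way, from 0.10 to 0.41. A test of whether the genotypes differed in their trend over days called none of the 34 genes and none of the 11005 (0.0%). At an unadjusted p under 0.05 it gave 0 of the 34 and 118 of all genes (1.07%). The runs of the group medians themselves were not tested.

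**Figure D4:**
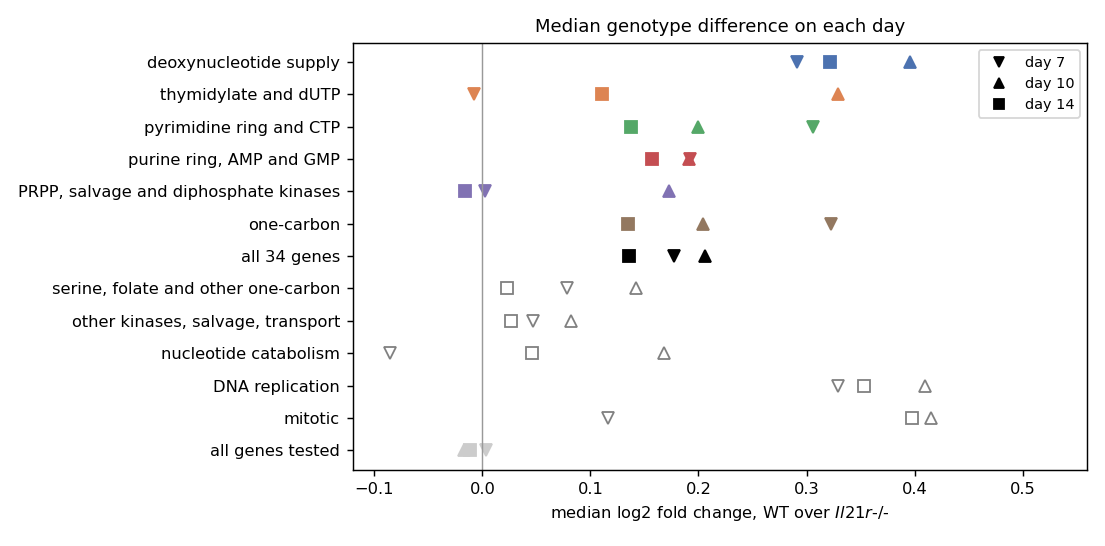
Median log2 fold change of WT over Il21r-/- on days 7, 10 and 14 (triangles and squares) for the 6 groups of function and all 34 genes (filled, coloured or black), for other lists (open, grey) and for all genes tested (light grey). Medians of the 34 genes were 0.18, 0.21 and 0.14, beside 0.33, 0.41 and 0.35 for DNA replication genes and values near 0 for all genes.

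Several of the 34 genes changed with time in both genotypes. In the fit over all 6 libraries, 3 rose with day (Tyms, Prps1 and Shmt1) and 1 fell (Samhd1), which was 4 of 34 (11.8%). Of all tested genes 1.07% rose and 3.36% fell. Tyms was at 81.7, 108.3 and 148.0 CPM in WT and at 86.0, 97.6 and 141.7 CPM in Il21r-/- cells on days 7, 10 and 14. Its log2 level rose by 0.11 ± 0.02 per day, which is 1.73-fold over the 7 days (edgeR adjusted p = 0.0119). Shmt1 was at 46.7, 59.9 and 65.2 CPM in WT and at 37.1, 52.0 and 64.8 CPM in Il21r-/- cells, a rise of 0.09 ± 0.02 per day (adjusted p = 0.0437). Both genotypes ended at nearly the same level of Shmt1. Prps1 rose by 0.09 ± 0.02 per day (adjusted p = 0.0394), mainly between days 10 and 14.

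Samhd1 was at 752.2, 657.3 and 528.5 CPM in WT and at 698.4, 679.0 and 451.4 CPM in Il21r-/- cells. Its log2 level changed by -0.08 ± 0.02 per day (adjusted p = 0.0490), and most of the change in Il21r-/- cells came after day 10. Without the Il21r-/- library of day 10, 11 of the 34 genes (32.4%) were called for the effect of day, beside 19.3% of all genes. Shmt1, Prps1 and Samhd1 were not called without any 1 of the other libraries, with adjusted p-values up to 0.285, 0.429 and 0.385. Tyms was not called without the WT library of day 7 (0.170) or of day 14 (0.184) or the Il21r-/- library of day 14 (0.0756). A total of 28 of the 34 genes had a positive slope, beside 50.54% of all tested genes. Day 14 compared with day 7, with day as a factor, called 17 of the 34 genes, beside 26.2% of all genes. Of the 17, 15 were higher on day 14, a direction called for 12.6% of all genes. The largest were Tyms (log2 fold change 0.79), Shmt1 (0.64), Prps1 (0.59) and Nme2 (0.59), and the 2 that were lower were Samhd1 (-0.57) and Prps2 (-0.31). A row of the table that is a pseudogene of Tyms held 18.5% to 21.2% as many reads as Tyms itself and also rose with day (0.10 ± 0.02 per day, adjusted p = 0.0348), so some reads of the pair may be shared. The pseudogene of Impdh2 held 404% to 431% as many reads as Impdh2, and the level of Impdh2 is uncertain to that extent.

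Isoform pairs were compared as the log2 ratio of their CPM per kb within each library, for 6 pairs. The ratio of Ctps to Ctps2 was 1.46, 1.68 and 1.69 in WT on days 7, 10 and 14 and 0.94, 1.21 and 1.07 in Il21r-/- cells. WT libraries all had the larger ratio, with means of 1.61 ± 0.13 and 1.07 ± 0.13 (SD, n = 3), a difference of 0.54 (exact permutation test, two-sided, p = 0.1, the smallest that 3 against 3 libraries can give, and 0.6 adjusted over the 6 pairs). The ratio of Prps1 to Prps2 was -1.16, -0.62 and -0.04 in WT and -1.44, -1.42 and -0.76 in Il21r-/- cells. It was larger in WT on 3 of 3 days, by 0.285, 0.796 and 0.722, and rose with time in both. The groups overlapped (difference 0.60, exact permutation p = 0.2, adjusted p = 0.6). The permutation test did not pair libraries by day for any of the 6 pairs, so change over the days enters the spread it measures. The other pairs, Impdh1 and Impdh2, Nme1 and Nme2, Shmt1 and Shmt2, and Mthfd1l and Mthfd2, differed between genotypes by 0.13, 0.08, -0.14 and -0.02. Their exact permutation p-values ran from 0.5 to 0.8. The ratio of Impdh1 to Impdh2 carries the uncertainty of the Impdh2 level that comes from reads on its pseudogene.

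**Figure D5:**
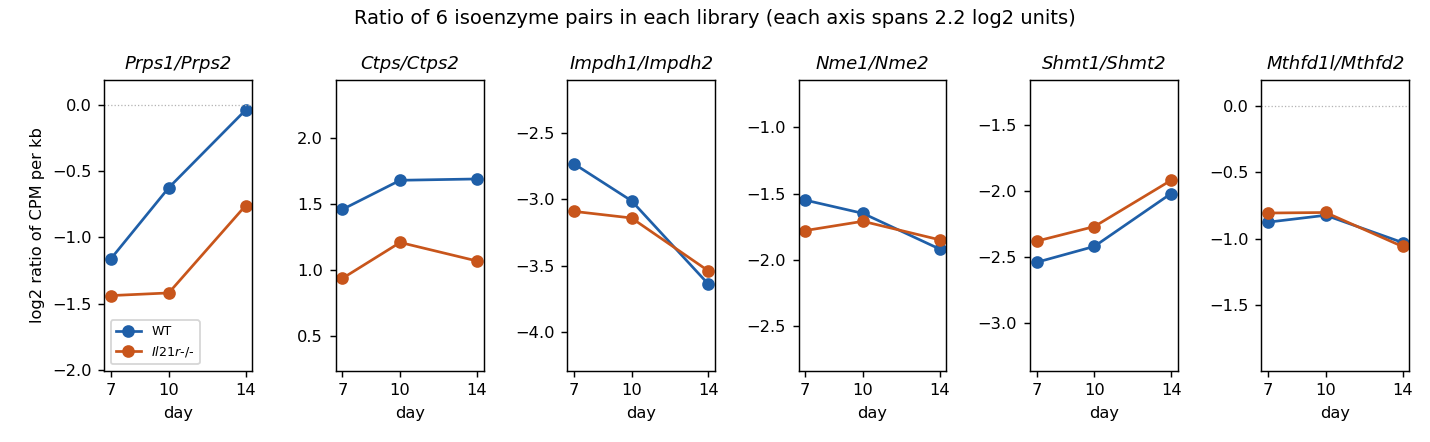
Log2 ratio of the CPM per kb of 6 isoform pairs in each library against the day, blue for WT and orange for Il21r-/-, with each axis spanning the same number of log2 units. WT lies above on each day for Ctps/Ctps2 and Prps1/Prps2, by a mean of 0.54 and 0.60, and the mean differences of the other 4 pairs lie between -0.14 and 0.13, with Impdh1/Impdh2 apart by 0.37 on day 7. The level of Impdh2 is uncertain because of reads on its pseudogene.

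Further genes of the same pathways were listed beside the 34. In a list of 25 serine, glycine, folate and other one-carbon genes, 19 were tested, with a median log2 fold change of 0.06 over the 3 days. Ahcy, which clears S-adenosylhomocysteine, was higher in WT by 0.45 ± 0.10 on the log2 scale (edgeR adjusted p = 0.0325). Ggh, which removes glutamates from folates, was higher in Il21r-/- cells, but at levels of only 0.610 to 2.272 CPM in WT and 3.505 to 5.150 CPM in Il21r-/- cells (-1.94 ± 0.39, adjusted p = 0.0238), and was also called on days 10 and 14. Phgdh, the first enzyme of serine synthesis, and Gcsh, of glycine cleavage, rose with day by 0.09 each on the log2 scale (adjusted p = 0.0234 and 0.0419).

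Of 27 tested kinase, salvage and transport genes, 1 was higher and none lower in WT. This was Adk, the adenosine kinase (0.44 ± 0.09, edgeR adjusted p = 0.0281), and 3 genes of the list rose with day and 2 fell. Dctpp1 and Nudt1, which clean the nucleotide pool, and Slc25a33, a mitochondrial pyrimidine carrier, rose by 0.10, 0.09 and 0.12 per day (adjusted p = 0.0284, 0.0417 and 0.0335). The mitochondrial kinases Tk2 and Cmpk2 changed by -0.09 and -0.26 per day (adjusted p = 0.0479 and 0.00626). Of 14 tested catabolic genes, Nt5e, the surface enzyme CD73 that makes adenosine from AMP, was higher in WT. It was at 20.6, 37.2 and 57.1 CPM in WT and at 14.3, 23.1 and 30.8 CPM in Il21r-/- cells, with a log2 fold change of 0.71 ± 0.13 (adjusted p = 0.0188), and rose with day in both genotypes by 0.18 ± 0.02 per day (adjusted p = 0.00909). Ampd3, an AMP deaminase, was called on day 10 alone (-1.80 ± 0.54, adjusted p = 0.0316), at 1.30 CPM in WT and 4.53 CPM in Il21r-/- cells.

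Genes of DNA replication and mitosis had positive values, like most of the 34. Over the 3 days all 24 replication genes were positive with a median log2 fold change of 0.37 and none called (21 called with day as a block), and all 20 mitotic genes were positive with a median of 0.37 and none called (16 with day as a block). Myc, a regulator of many genes of nucleotide synthesis, was at 28.0, 31.2 and 32.6 CPM in WT and at 24.7, 39.6 and 31.1 CPM in Il21r-/- cells (-0.05 ± 0.16, adjusted p = 0.885). The summed level of 10 naive or memory B cell markers was 319 to 772 CPM in WT and 759 to 1256 CPM in Il21r-/- cells. Of the 10, 7 were higher in Il21r-/- cells on all 3 days, and 3 (Cr2, Cd38 and Ighd) were lower on day 7. Fcer2a, picked after its values were seen, was the highest of the 10 in every library, at 392.2, 219.1 and 154.2 CPM in WT and at 807.6, 789.4 and 510.5 CPM in Il21r-/- cells. Without it the sums were 165 to 380 CPM in WT and 249 to 449 CPM in Il21r-/- cells, which overlapped. Whether the share of dividing cells or of cells with these markers plays a part in the differences of the 34 genes was not tested, and in bulk libraries fewer cells of a type and less RNA per cell cannot be told apart.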

How the data were processed

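Whole-number read counts per gene were deposited by the authors, without normalization, for 6 libraries of sorted GC B cells, from unstranded TruSeq RNA v2 libraries (base calls by CASAVA 1.8.2) aligned to mm10 with Rsubread and counted with featureCounts and its RefSeq annotation, with technical replicates pooled. Whether counting used multi-mapping or strand is not given in the sources used here. The single-library tables of all 6 libraries equalled the joint table, and 0 columns lacked a sample. Identifiers were given symbols from RefSeq (25275) and GENCODE (18), and 1886 had none, with 1.57% to 2.24% of the counts of a library.

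Genes with an average log2 CPM of at least 0 were tested with edgeR 4.0.16 (R 4.3.3). Ig variable genes, Xist and genes of the Y chromosome were not tested. The model held genotype and a linear effect of day, which left 3 residual degrees of freedom. It used TMM factors, robust dispersions and quasi-likelihood tests, and the day-wise likelihood ratio tests used a mean per day. P-values were adjusted by the Benjamini-Hochberg method over all 11005 genes, with a threshold of 0.05. The procedure was tested on simulated data.

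After subtraction of genotype means, log2 levels of the libraries of 1 day were correlated across genes (r = 0.64, 0.413 and 0.645 on days 7, 10 and 14). These values describe genes, which are not independent replicates. A linear trend with day shared by both genotypes was not subtracted, so the values cannot show pairing by day beyond the line of the main model. Alternatives were day as a block, DESeq2 1.42.0, other filters and leaving out each library.

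The genes and lists were chosen with earlier results of these data known. Named genes were any of the 34, list genes that were called, Il21r and Myc, with values per library for called genes, for the leading genes of each group and for isoform pairs. SDs are across days. The result of 1 listed gene is not reported here.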

Additional observations from a re-analysis of the deposited data

Results flagged for a closer look

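Reads on pseudogenes of the genes described were found outside the comparisons, well above the limit of 3 counts that a count of 0 allows. The pseudogene of Tyms had at least 417 counts in every library, and that of Impdh2 at least 6033. Their log2 fold changes over 3 days were -0.03 ± 0.13 for Tyms-ps and 0.14 ± 0.09 for Impdh2-ps (edgeR adjusted p = 0.932 and 0.426). Groups of 3 libraries were too small for a search for libraries that stand apart, and the test of a difference in day trend called none of the 34 genes.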

How the results depend on the processing

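Directions held in each alternative run for the 6 single-gene results that passed the threshold, and 27 to 32 of the 34 genes were positive over the 3 days in every alternative. With day as a replicate block, the genotype effect over 3 days was called for 2519 genes instead of 651 and for 15 of the 34 instead of 2. On single days the block gave 303, 822 and 1055 genes instead of 118, 341 and 361, with 3 of the 34 on day 10 and 1 on day 14 instead of 0. Over 3 days, no filter on low counts gave 991 genes, and a minimum of 10 counts in every library left 1 of the 34 (Prps2 then had an adjusted p of 0.0544). The DESeq2 Wald test over 3 days called 4 of the 34 instead of 2, beside 951 of all genes instead of 651. The calls thus rose over all genes as well. On single days DESeq2, fitted with a linear effect of day in place of a mean per day, called 32, 132 and 94 genes. With the linear effect of day kept, day 10 gave 3 of the 34 instead of 0 (Prps2, Rrm1 and Rrm2), beside 722 of all genes instead of 341. Here too the calls rose over all genes, not only among the 34. For the effect of day, 488 genes became 869 without a filter, 870 with DESeq2 and 2880 for day 14 against day 7, with 17 of the 34 genes instead of 4. Samhd1 passed the threshold neither with DESeq2 size factors (adjusted p = 0.0520) nor with the 10-count minimum (0.0503).

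Leaving out 1 library at a time left few degrees of freedom. The genotype effect over 3 days then gave 136 to 2093 genes and 0 to 10 of the 34. The 10 came without the Il21r-/- library of day 10 (Cad, Ctps2, Gart, Mthfd1l, Mthfd2, Pfas, Prps2, Rrm1, Rrm2 and Shmt2), and leaving out any other library gave 0. The effect of day gave 0 to 2124 genes and 0 to 11 of the 34, again with the most without that library, and 0 without the WT library of day 7, the WT library of day 14 or the Il21r-/- library of day 14. The difference in day trend gave 0 to 11 genes and none of the 34, day 7 gave 105 to 212 genes, and day 14 gave 339 to 698 genes. The causes were not tested. Searching only the 250 bases before the start moved no motif share of the 34 beyond its 95% binomial interval. With 32 genes this check is coarse, as the share of TTTCCCGC went from 6.25% to 3.12% within its interval. At the depth of these libraries Impdh1, the least read of the 34 at 9.93 to 15.5 CPM, had at least 212 counts in every library. How depth and the number of libraries each bore on the precision was not tested.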
